A study of Mus musculus with 21 samples.

Results

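The cytochrome P450 genes of families 1 to 3 were followed in mouse liver after microRNA-122 was blocked. They are the families that oxidise most drugs and many steroids and fatty acids. A gene was taken when its symbol began with Cyp1, Cyp2 or Cyp3 followed by a subfamily letter and a number and when a probe set carried that symbol alone, and the probe set with the highest mean level stood for the gene. That gave 43 of the 18193 genes measured, in 14 subfamilies. The rule used symbols and mean level and no expression difference, but it was set with earlier results of these data known. The 43 genes had 52 such probe sets in all, 7 genes having several. Another 2 probe sets, each naming a pair of paralogues, were left out and are described with their subfamilies.

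Female NMRI mice, an outbred stock, were given SPC3372, a locked nucleic acid oligonucleotide complementary to microRNA-122, at 25 mg per kg on day 2, or saline. The mice were killed on day 3, 9 or 23, with 3 treated and 3 saline mice per day, so that 18 mice made 6 groups of 3. All mice were otherwise untreated females of the same stock, and an age is not given in the labels. Whole-liver RNA was hybridised to Affymetrix mouse arrays in 2 array sets: days 3 and 9 in p0617 and day 23 in p0621. Treated and saline livers of a given day were thus compared within the same set. The 3 treated mice of day 23 were also hybridised in p0617, and those repeat arrays served only to check the measurement.

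Cytochrome P450 enzymes of these families sit in the membrane of the endoplasmic reticulum, carry a haem group and receive their electrons from cytochrome P450 oxidoreductase. Their transcription in hepatocytes is set by nuclear factors that sense foreign compounds: the aryl hydrocarbon receptor (Ahr) with its partner Arnt for family 1, and CAR (Nr1i3) and PXR (Nr1i2), each paired with the retinoid X receptor (Rxra), for many genes of families 2 and 3. Many of them are made mainly by the hepatocytes around the central vein, and in mice several differ in level between females and males under the control of growth hormone.

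The results turn on Cyp1a2, which stood higher in treated mice on each day, while Cyp1a1, its neighbour on chromosome 9 and the standard indicator of aryl hydrocarbon receptor activity, did not differ detectably. The promoters of both genes, 250 bases before to 50 bases after the RefSeq start on assembly GRCm38.p6, are printed because the receptor with Arnt binds elements holding the core GCGTG. Capitals mark that core and the TATA box, TATAAA.
Cyp1a1, chr9:57697363-57697662, plus strand: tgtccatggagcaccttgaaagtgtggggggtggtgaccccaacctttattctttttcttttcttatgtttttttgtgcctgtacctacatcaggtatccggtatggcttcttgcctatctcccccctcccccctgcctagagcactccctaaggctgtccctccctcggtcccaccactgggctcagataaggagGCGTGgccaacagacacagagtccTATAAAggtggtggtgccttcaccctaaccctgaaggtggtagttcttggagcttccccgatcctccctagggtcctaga
Cyp1a2, chr9:57683606-57683905, minus strand: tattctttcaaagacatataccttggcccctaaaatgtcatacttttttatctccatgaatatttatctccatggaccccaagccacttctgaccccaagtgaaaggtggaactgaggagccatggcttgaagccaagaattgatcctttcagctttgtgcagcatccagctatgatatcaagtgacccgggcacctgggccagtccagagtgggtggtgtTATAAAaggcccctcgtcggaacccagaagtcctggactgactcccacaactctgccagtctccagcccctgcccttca
The Cyp1a1 window held GCGTG at 54 bases and TATAAA at 30 bases before the start. The Cyp1a2 window held TATAAA at 29 bases before the start and no GCGTG on either strand, which says only that these letters are not in that window. RefSeq promoters were found for 35 of the 43 genes, 38 promoters in all. Searched on both strands, GCGTG was in 8 of the 38 (21.1%) against 32.4% of 32851 promoters, AGGTCA, the half-site of nuclear receptors, in 13 (34.2%) against 16.3%, and TATAAA in 18 (47.4%) against 13.6%. These shares describe the letters in the windows and are not binding sites.

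Most of the 43 genes were bright in these livers. On the log2 scale of the deposited values, 32 lay above the median level of all genes (5.88), 21 in the top 5% and 11 in the top 1%. The mean over the 18 arrays was 14.12 for Cyp2e1, the ethanol-oxidising P450, and 14.09 for Cyp3a11, the main drug-oxidising P450 of mouse liver, close to the highest single value of the arrays, where a difference can be compressed. Levels of different probe sets depend on the probes as well as on the RNA, so no gene is ranked against another by amount. The 11 genes at or below the median, among them Cyp1a1, Cyp1b1, Cyp2b19, Cyp2c65, Cyp2d12, Cyp2j13 and Cyp2s1, carry little information, because differences of dim probe sets are understated. Values are of whole liver, in which fewer cells of a type and less RNA per cell cannot be told apart.

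**Figure D1:**
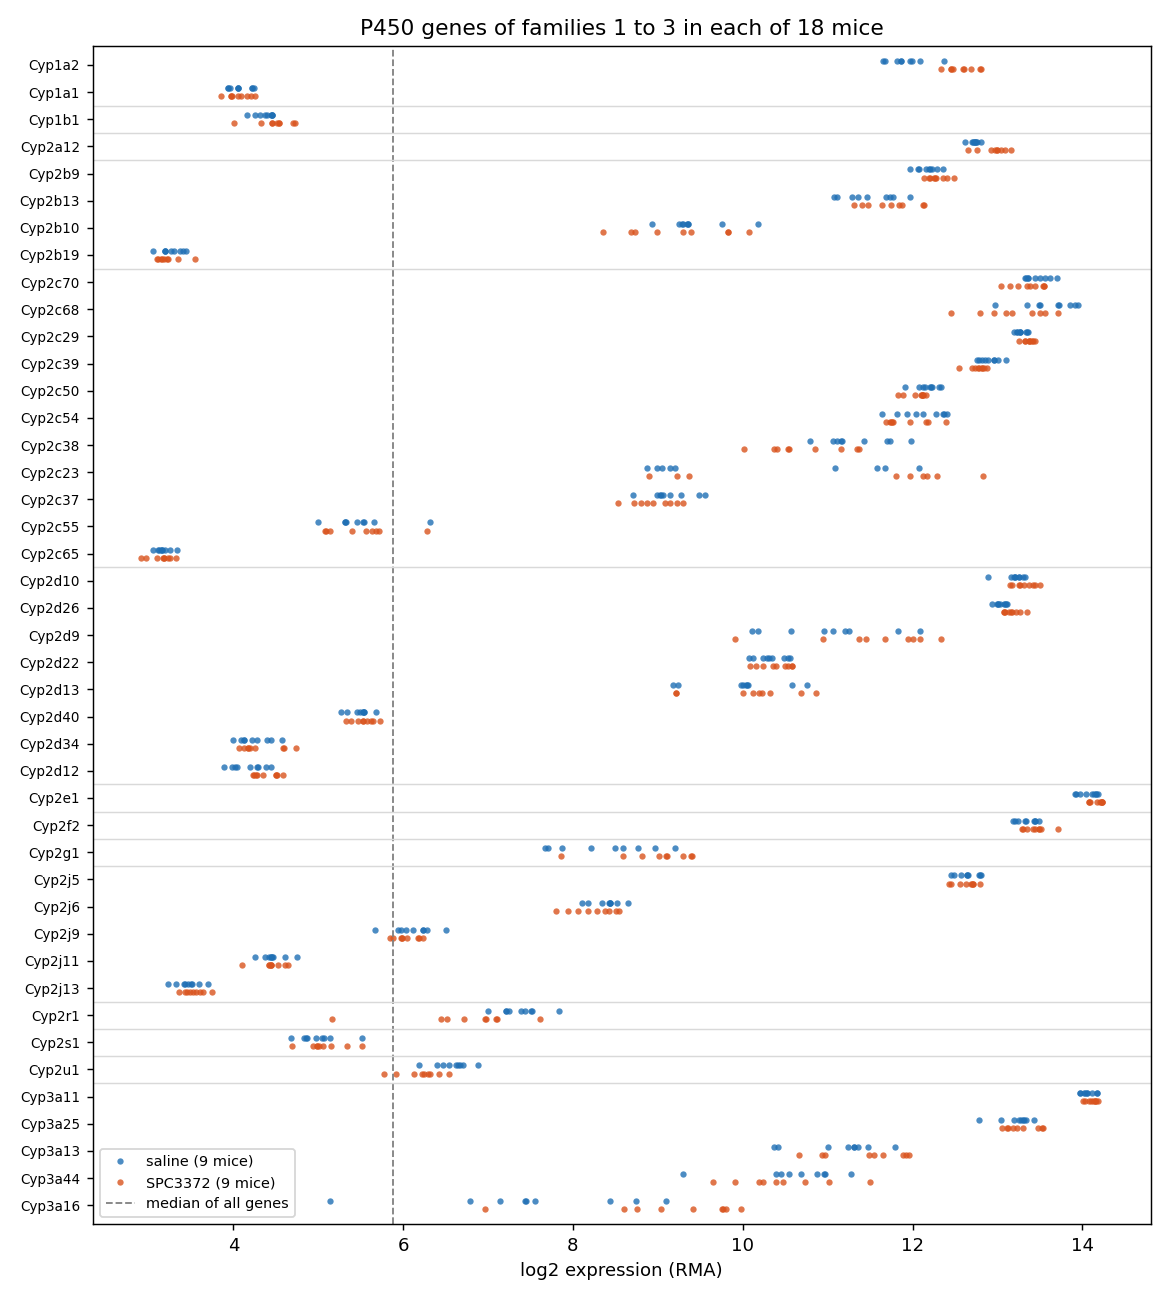
Log2 expression (x axis, RMA) of each of the 43 P450 genes (y axis, grouped by subfamily and ordered by mean level within it) in the 9 saline and 9 treated mice of all days, 1 point per mouse; the dashed line is the median of all genes, 5.88. Cyp1a2 points of treated mice lie to the right of nearly all saline points, most bright genes overlap, and Cyp2c23 and Cyp3a16 spread over several log2 units.

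Few of the genes passed the test on a single day. At day 3, 1 of 43 was higher (Cyp1a2) and 0 were lower, while 4.51% of all genes passed (2.63% higher and 1.88% lower; limma, adjusted p below 0.05 over the 18193 genes). At day 9, 2 were higher (Cyp1a2 and Cyp2a12) and 0 lower, against 2.81% of all genes (1.91% higher and 0.896% lower). At day 23, 0 passed, against 0.385% (0.187% higher and 0.198% lower). At an unadjusted p below 0.05 there were 7, 11 and 6 genes on the days in turn, where 18.3%, 16.8% and 13.9% of all genes lay, and 16 for the mean of the days, where 23.9% lay. These counts were 16.3%, 25.6%, 14.0% and 37.2% of the 43. The share was thus close to that of all genes at days 3 and 23 and larger than it at day 9 and for the mean of the days. Among genes above the median level it was 34.4% of the P450 genes against 23.9% at day 9 and 46.9% against 37.3% for the mean. For the mean of the daily differences, which uses all 18 mice, 5 genes were higher (Cyp1a2, Cyp2a12, Cyp2d26, Cyp2g1 and Cyp3a16) and 2 lower (Cyp2c38 and Cyp2u1), together 16.3% of the 43 against 11.6% of all genes (5.6% higher and 6.01% lower). Among the genes above the median level the share was 21.9% of 32 against 20.3%.

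The median difference over the 43 genes was 0.08, 0.03 and 0.07 on the log2 scale at days 3, 9 and 23, and 0.01, -0.02 and -0.02 over all genes. Treated and saline mice did not overlap for 8 genes above and 2 below at day 3 (23.3%, against 21.5% of all genes, 11.1% above and 10.4% below), for 5 above and 6 below at day 9 (25.6% against 21.6%, 10.4% above and 11.2% below), and for 8 above and 2 below at day 23 (23.3% against 19.2%, 8.12% above and 11.1% below). Cyp1a2 and Cyp2e1 were the 2 genes whose treated mice all lay above the saline mice on every day, as for 1.28% of all genes. No P450 gene lay below on every day, as 1.24% of all genes did. No change in effect between days passed the limma test for any P450 gene: 2 genes had an unadjusted p below 0.05 for day 9 minus day 3, 2 for day 23 minus day 9 and 3 for day 23 minus day 3, against 11.6%, 8.69% and 10.3% of all genes. The shares of all genes that passed were 0.143%, 0.0055% and 0.302%. The days were therefore not shown to differ for any of the 43.

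**Figure D2:**
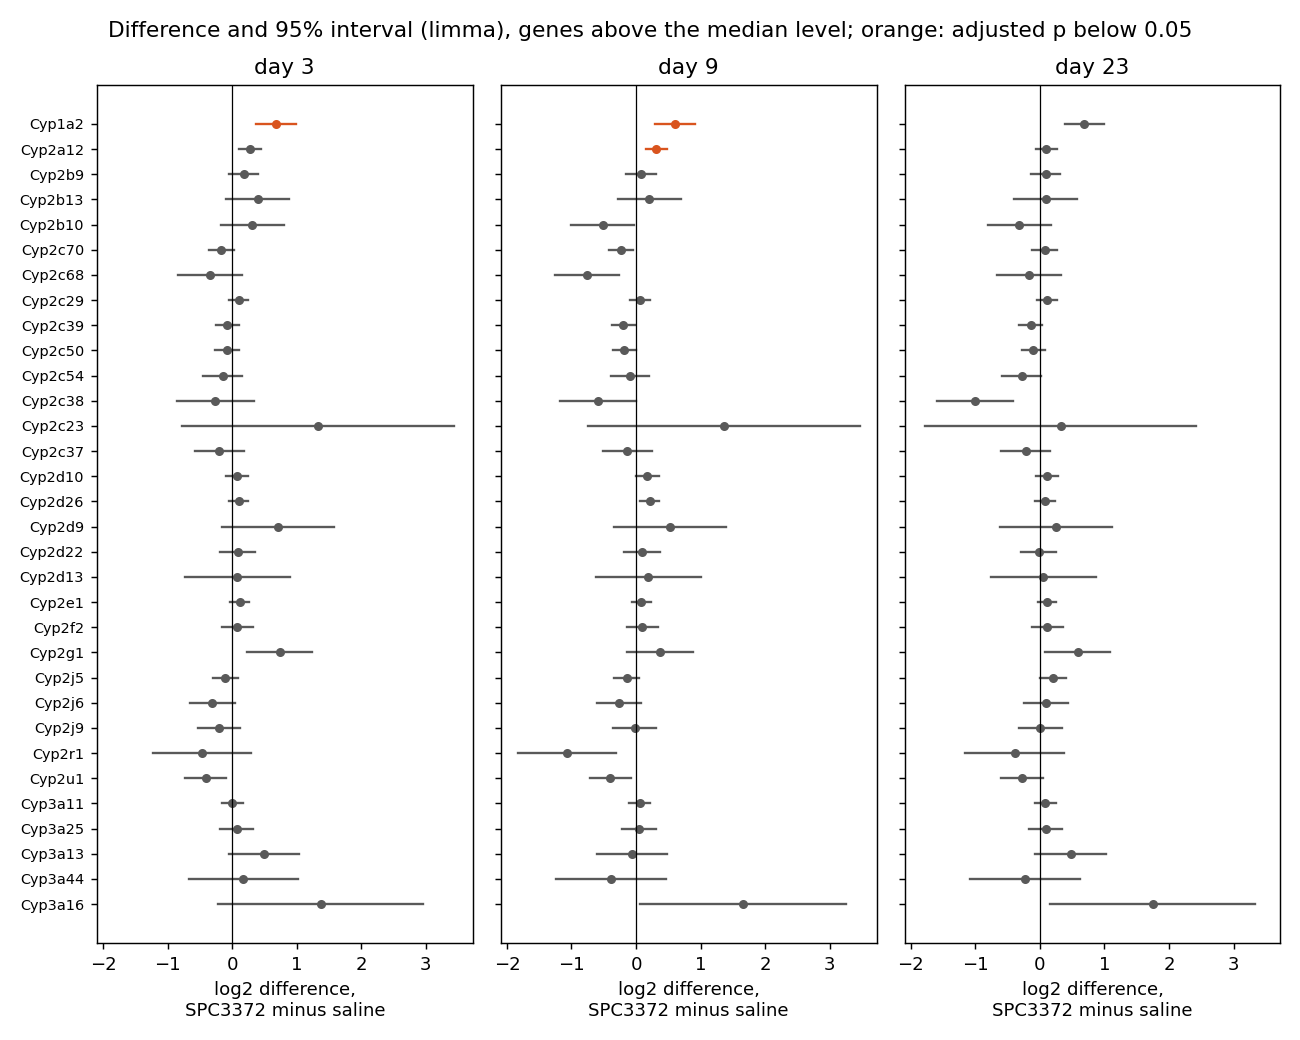
Log2 difference, SPC3372 minus saline (x axis), with its 95% interval from limma for the 32 P450 genes above the median level (y axis) on days 3, 9 and 23, 3 mice per group; orange marks an adjusted p below 0.05. Cyp1a2 lies between 0.60 and 0.69 on all days, most intervals of other genes hold 0, and those of Cyp2c23 and Cyp3a16 are the widest.

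The CYP1A and CYP1B genes encode the enzymes induced through the aryl hydrocarbon receptor. Cyp1a2 oxidises aromatic amines and caffeine and is made constitutively by hepatocytes. At day 3 its log2 level was 11.82, 11.68 and 11.86 in the saline mice and 12.60, 12.34 and 12.45 in the treated mice. At day 9 it was 11.99, 12.09 and 11.97 against 12.46, 12.80 and 12.59, and at day 23 it was 12.38, 11.66 and 11.87 against 12.69, 12.79 and 12.48. The groups did not overlap on any day, although 1 saline mouse of day 23 came close to its treated group. Cyp1a2 was 1.60-fold higher at day 3 (0.68, SE 0.15, limma adjusted p = 0.0115) and 1.51-fold higher at day 9 (0.60, SE 0.15, adjusted p = 0.0351). At day 23 the difference was of the same size, 0.69 (SE 0.15), with an adjusted p of 0.0509. The mean of the days was 0.65 (SE 0.08), 1.57-fold, with an adjusted p of 0.000109. The repeat arrays of the treated day 23 mice read 12.79, 12.78 and 12.44, within 0.0936 of the arrays used.

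The call of Cyp1a2 on single days was not firm, and that of the mean was. At day 3 its adjusted p became 0.0658 without treated mouse 1 and 0.0554 without saline mouse 2. At day 9 leaving out any one of the 6 mice gave an adjusted p from 0.0533 to 0.122, and fitting that day's arrays alone gave 0.0523. At day 23 leaving out any one mouse gave a difference from 0.53 to 0.89 and an adjusted p from 0.0117 to 0.147. Only leaving out saline mouse 1 (0.89, adjusted p = 0.0117) gave a call there. The mean of the days passed in 26 of 26 other settings, from 0.60 to 0.72. The log2 ratio of the 3' to the 5' beta-actin control, a measure of how intact the RNA was and how far labelling reached, was 0.80 ± 0.05, 0.93 ± 0.06 and 1.16 ± 0.04 in saline and 1.03 ± 0.02, 1.14 ± 0.02 and 1.15 ± 0.16 in treated mice at days 3, 9 and 23 (SD, n = 3). With that ratio as a covariate the Cyp1a2 difference was 0.63, 0.55 and 0.69 on the days, with adjusted p of 0.229 and 0.353 at days 3 and 9, and 0.62 for the mean, adjusted p = 0.0232. At days 3 and 9 the ratios of treated and saline mice did not overlap, so the covariate can hardly be told apart from treatment. With it, calls over all genes fell from 821 to 98 at day 3 and from 511 to 35 at day 9. A call lost with it is therefore not shown to come from RNA quality. The same ratio of Gapdh was 0.07 and 0.15 in saline and 0.12 and -0.06 in treated mice at days 3 and 9.

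Cyp1a1 was dim, with single mice from 3.86 to 4.25, below the median of all genes. Its differences were 0.04, -0.04 and -0.04 at days 3, 9 and 23, none called, and the 95% interval of the mean difference ran from -0.14 to 0.11 on the log2 scale. The interval for Cyp1a2 ran from 0.48 to 0.83, but as dim probe sets are compressed, a change of Cyp1a1 at levels the probe set does not resolve would not be seen. Cyp1b1, which oxidises oestradiol and is low in hepatocytes, differed by 0.19, 0.13 and -0.01 and was not called. Of the other genes known to respond to the receptor, 0 of 7 passed at any day and 1 passed for the mean, Nfe2l2, a regulator of antioxidant genes (0.24, SE 0.06, adjusted p = 0.0108). The Nfe2l2 call was lost with the mean of its probe sets (0.17, adjusted p = 0.0749) and with the beta-actin covariate (0.22, adjusted p = 0.222). Of all genes 4.51%, 2.81% and 0.385% passed on the days and 11.6% for the mean, so these counts of 7 genes are near the background. Nqo1, a quinone reductase of that battery, differed by -0.02, 0.00 and -0.14, and Ahrr, the receptor's repressor, by -0.02, -0.15 and -0.13.

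Ahr itself was higher in treated livers. Its saline mice read 9.32, 9.39 and 9.55 at day 3, 9.30, 9.14 and 9.12 at day 9, and 9.65, 9.52 and 9.69 at day 23. The treated mice read 10.01, 10.17 and 9.82 at day 3, 9.68, 9.82 and 9.95 at day 9, and 10.04, 10.04 and 10.24 at day 23. The groups were apart on all days. Ahr was 1.49-fold higher at day 3 (0.57, SE 0.10, adjusted p = 0.0039) and 1.55-fold higher at day 9 (0.63, SE 0.10, adjusted p = 0.0045). At day 23 it differed by 0.49 with an adjusted p of 0.0509, and the mean of the days was 0.56 (SE 0.06, adjusted p = 1.8e-05). Its calls held without each mouse. With the mean of its probe sets in place of the brightest the differences were smaller, 0.34 and 0.35 at days 3 and 9 and 0.31 for the mean of the days, and still passed. On that day's arrays alone the adjusted p at day 3 was 0.0563, and with the beta-actin ratio as a covariate the values were 0.61 and 0.66 at days 3 and 9 with adjusted p of 0.0955 and 0.0898. Arnt, its partner, differed by 0.17, 0.09 and 0.11 and was not called.

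**Figure D3:**
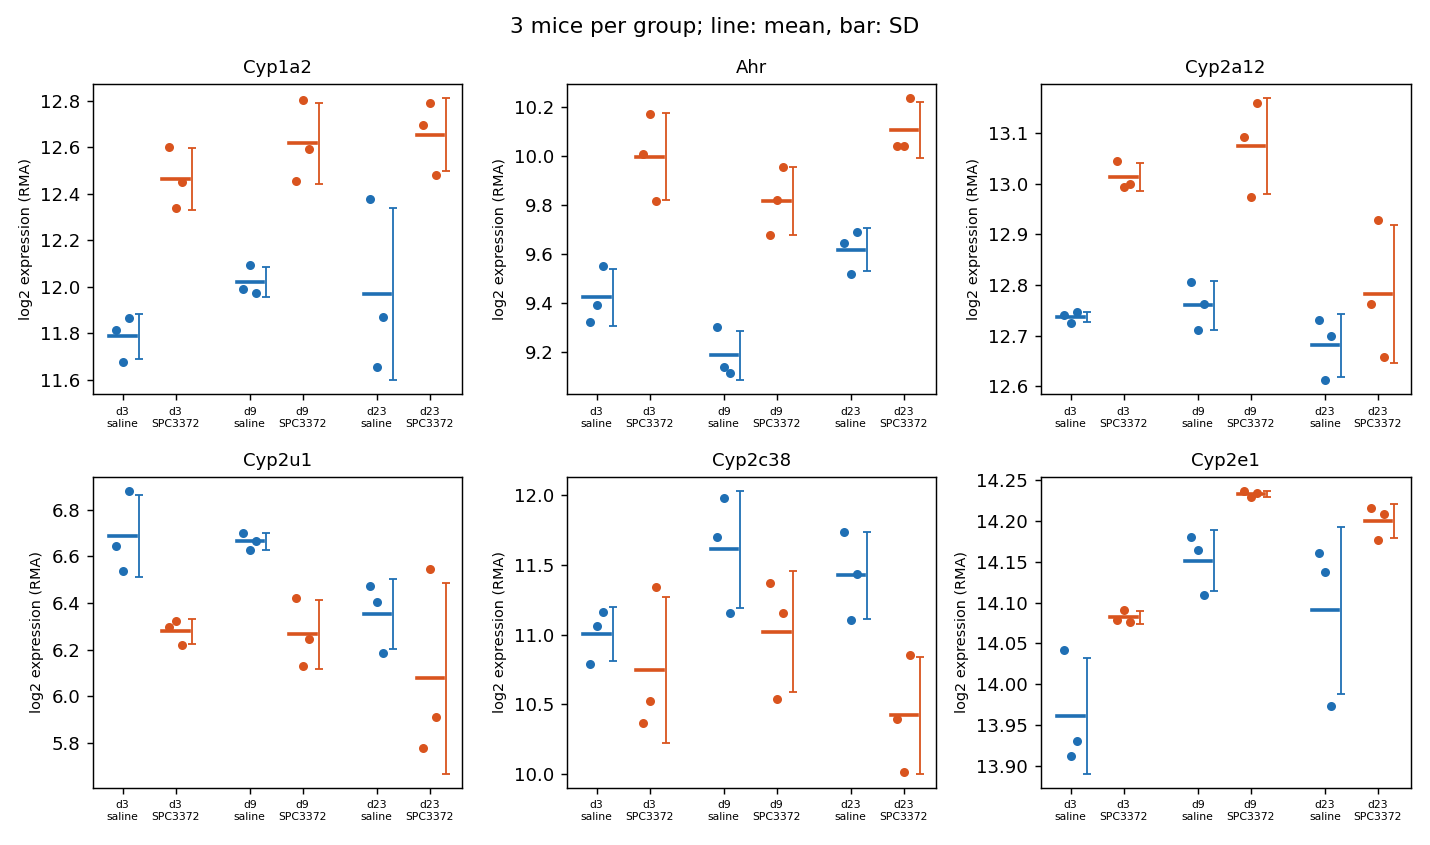
Log2 expression (y axis, RMA, a different range in each panel that does not start at 0) of Cyp1a2, Ahr, Cyp2a12, Cyp2u1, Cyp2c38 and Cyp2e1 in the 6 groups (x axis, day and treatment); points are mice, lines group means and bars the SD of 3 mice. Cyp1a2, Ahr and Cyp2e1 treated mice lie above the saline mice of the same day throughout, while Cyp2a12 groups separate on days 3 and 9 only.

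Cyp2a12, a testosterone hydroxylase, was the sole CYP2A gene with a probe set of its own. Its saline mice read 12.74, 12.73 and 12.75 at day 3 and 12.81, 12.71 and 12.76 at day 9. Its treated mice read 13.04, 12.99 and 13.00 at day 3 and 13.09, 12.97 and 13.16 at day 9. The groups did not overlap on either day. Cyp2a12 was 1.24-fold higher at day 9 (0.32, SE 0.08, adjusted p = 0.0392), differed by 0.28 at day 3 (adjusted p = 0.0561), and differed by 0.10 at day 23, where the groups overlapped. The mean of the days was 0.23 (SE 0.05), 1.17-fold, with an adjusted p of 0.00312. The call at day 9 was lost without any one mouse of that day except treated mouse 2 (adjusted p up to 0.159) and on that day's arrays alone (0.143), and the call of the mean was lost with the beta-actin ratio as a covariate (0.21, adjusted p = 0.143). The probe set that Cyp2a5, a coumarin hydroxylase, shares with Cyp2a4, a female-predominant steroid hydroxylase, differed by 0.00, 0.30 and 0.12 and was not called. The signals of these paralogues cannot be separated in it.

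The CYP2B genes include Cyp2b10, the standard target of CAR, and the female-predominant Cyp2b9 and Cyp2b13. None of the 4 was called on any day or for the mean. Cyp2b10 read 9.25, 9.36 and 10.18 in saline and 9.83, 10.07 and 9.83 in treated mice at day 3, and 8.93, 9.35 and 9.28 against 8.68, 8.99 and 8.35 at day 9. The groups overlapped on both days. Its differences were 0.31, -0.52 and -0.32 (SE 0.23) at days 3, 9 and 23, with adjusted p of 0.526, 0.265 and 0.591. The chosen Cyp2b10 set is of the _s_at kind, whose probes can match several members of a family; the other two probe sets of the gene had the same signs on each day. Cyp2b9 differed by 0.18, 0.08 and 0.09 and Cyp2b13 by 0.40, 0.21 and 0.09.

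The 11 CYP2C genes form a cluster on chromosome 19 and hydroxylate drugs, steroids and arachidonic acid. Their differences were below 0 for 8, 9 and 6 genes at days 3, 9 and 23 and for 8 genes in the mean of the days, with medians of -0.08, -0.18, -0.10 and -0.12. Cyp2c38, an arachidonic acid oxidase counted here among the female-predominant genes, was the 1 gene that passed the test, for the mean of the days. These genes share much sequence, so their probe sets may not be independent readings.

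Cyp2c38 read 10.79, 11.06 and 11.16 in saline and 10.37, 10.53 and 11.34 in treated mice at day 3. At day 9 it read 11.70, 11.98 and 11.16 against 11.37, 10.54 and 11.16, and at day 23 it read 11.73, 11.11 and 11.43 against 10.40, 10.02 and 10.85. Only at day 23 did all treated mice lie below the saline mice. The differences were -0.26, -0.59 and -1.0 (SE 0.28), with an adjusted p of 0.104 at day 23, and Cyp2c38 was 1.53-fold lower for the mean of the days (-0.62, SE 0.16, adjusted p = 0.0191). That call held without each mouse and was lost with the beta-actin ratio as a covariate (-0.51, adjusted p = 0.342).

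Of the other CYP2C genes, Cyp2c68 read 13.94, 13.35 and 13.50 in saline and 12.95, 13.10 and 12.45 in treated mice at day 9, with no overlap, and differed by -0.76 (SE 0.23, adjusted p = 0.0938). Its differences at days 3 and 23 were -0.34 and -0.17 and its mean -0.42 (adjusted p = 0.0524). Cyp2c70, which makes the muricholic acids of rodent bile, differed by -0.17, -0.23 and 0.08, with treated mice all below saline at days 3 and 9. Cyp2c39 (-0.20) and Cyp2c50 (-0.18) also had all treated mice below saline at day 9, without passing the test. Cyp2c29, a bright gene inducible through CAR, differed by 0.10, 0.06 and 0.11. In 1 treated day 23 mouse its 2 arrays differed by 0.43, more than those differences.

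Cyp2c23, an arachidonic acid epoxygenase, varied most between mice of a group. In 8 mice it lay from 8.87 to 9.37 and in the other 10 from 11.08 to 12.83, with a gap of 1.71 between them. Both levels occurred in treated and saline mice: the upper held 1, 2 and 1 saline mice and 2, 3 and 1 treated mice at days 3, 9 and 23. The repeat arrays returned the same level for each treated day 23 mouse, 9.22, 12.18 and 9.31 against 9.37, 12.17 and 9.22. The SD within groups, 1.44, was in percentile 99.97 of all genes, so a treatment difference of 1.33 at day 3 had an SE of 1.0 and was not called. Its probe set is of the _s_at kind.

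**Figure D4:**
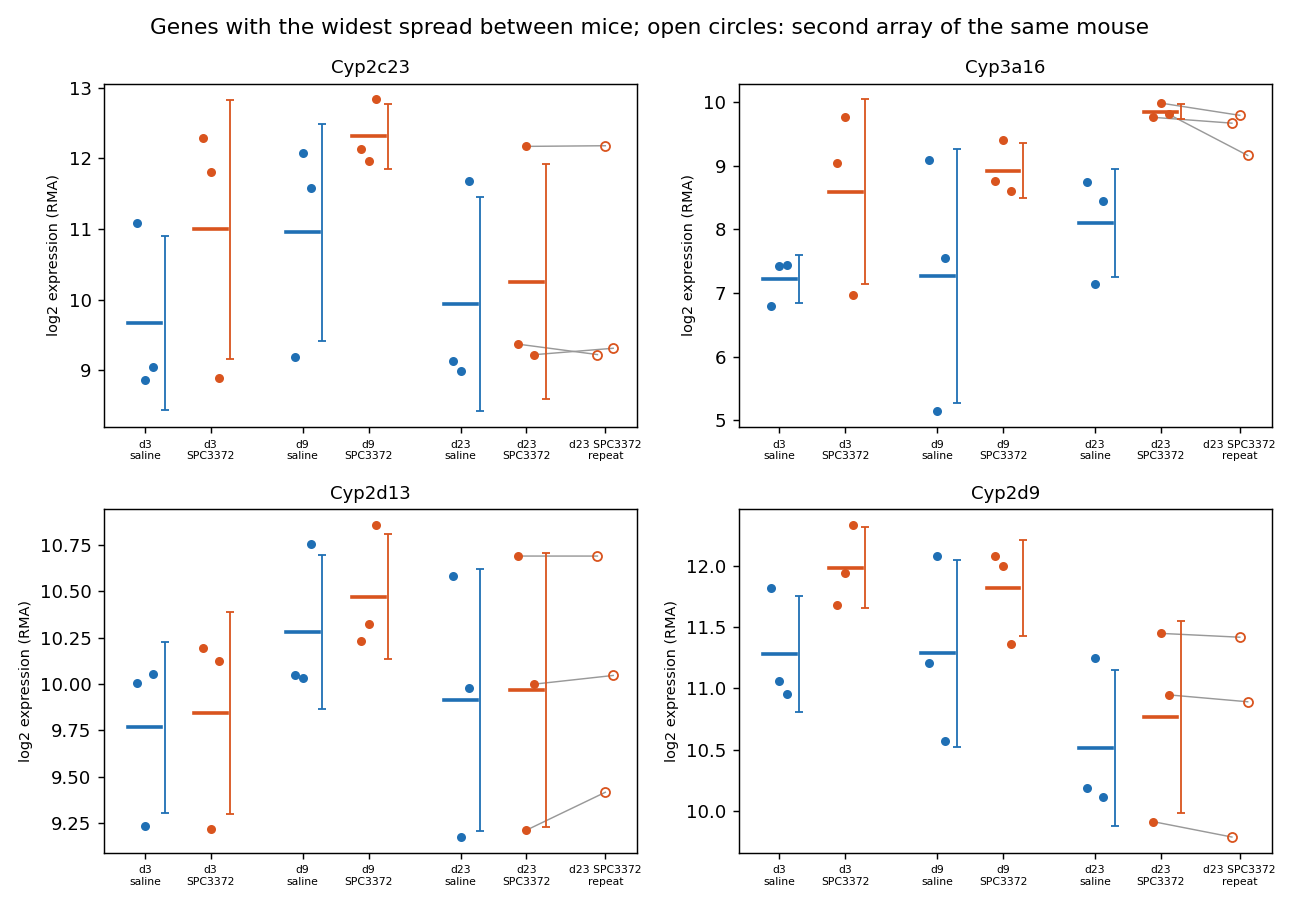
Log2 expression (y axis, RMA, a different range in each panel that does not start at 0) of Cyp2c23, Cyp3a16, Cyp2d13 and Cyp2d9, genes with a wide spread between mice, by day and treatment (x axis); filled points are mice, lines means, bars the SD of 3 mice, and open circles joined by a line the repeat array of the same treated day 23 mouse. Cyp2c23 shows 2 levels, near 9 and near 12, in treated and saline mice alike, and its repeat arrays fall on the level of their mouse.

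Cyp2d9 and Cyp2d13 of the CYP2D subfamily, relatives of the human debrisoquine hydroxylase, also varied between mice. Cyp2d9, a testosterone hydroxylase that is higher in males, ranged from 9.91 to 12.34 over the 18 mice, and its differences of 0.71, 0.53 and 0.25 had an SE of 0.41 and were not called. Cyp2d13 differed by 0.08, 0.19 and 0.06 (SE 0.39). The median SD between mice of a group was 0.198 for the P450 genes above the median level and 0.133 for all genes above it, while the median difference between the 2 arrays of a mouse was 0.0873 and 0.101. P450 genes were thus more variable between mice and no more variable between arrays of a mouse, as a description of these outbred animals.

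By the brightest probe set of each, all 8 CYP2D genes had a difference above 0 at days 3 and 9 and in the mean of the days, and 7 at day 23, with medians of 0.08, 0.14, 0.07 and 0.11. The genes lie together on chromosome 15 and share sequence. Cyp2d40, Cyp2d34 and Cyp2d12 lay below the median level of all genes. Several differences were smaller than their SE, as at day 3 for Cyp2d40 (0.06, SE 0.11) and Cyp2d34 (0.08, SE 0.15). The count of signs is therefore a description only. Cyp2d26 alone passed, for the mean of the days: 0.13 (SE 0.04), 1.09-fold, adjusted p = 0.0489. It passed in 7 of 26 other settings, with an adjusted p up to 0.35, so this call rests on the setting. Its 3 treated mice of day 9 read 13.34, 13.27 and 13.22, above the saline mice at 13.12, 13.08 and 13.00. Cyp2d10 and Cyp2d22 differed by 0.18 and 0.09 at day 9, and neither was called. A second Cyp2d22 probe set of similar level (10.03 against 10.35) had the opposite sign, -0.28, -0.03 and -0.08 at days 3 and 9 and for the mean, without a call.

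Cyp2e1, which oxidises ethanol and acetone, read 14.04, 13.91 and 13.93 in saline and 14.08, 14.09 and 14.08 in treated mice at day 3. At day 9 it read 14.18, 14.16 and 14.11 against 14.24, 14.23 and 14.23, and at day 23 it read 14.16, 14.14 and 13.97 against 14.22, 14.18 and 14.21. The groups stood apart by small steps on each day, and the repeat arrays of the treated day 23 mice, from the other array set, read 14.13, 14.16 and 14.07. The differences were 0.12, 0.08 and 0.11, and the mean of 0.10 (SE 0.04) had an adjusted p of 0.111. The mean passed in 2 of 26 other settings, with genes above the median level (adjusted p = 0.0428) and with the intensity trend (0.0278). Cyp2f2, a naphthalene oxidase, differed by 0.08, 0.10 and 0.12 and was not called.

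Cyp2g1, best known from the olfactory mucosa, was 1.48-fold higher for the mean of the days (0.56, SE 0.14, adjusted p = 0.0126). It read 7.70, 7.88 and 7.67 in saline and 8.59, 9.02 and 7.85 in treated mice at day 3, and 8.77, 8.21 and 8.59 against 9.10, 9.40 and 8.81 at day 23. The groups separated at day 23 only. It was also the only P450 gene that passed between saline mice of day 9 and day 3, 2.20-fold higher at day 9 (1.14, SE 0.24, adjusted p = 0.00797), where 5.88% of all genes passed (2.76% higher). The difference between days in saline mice was thus larger than the mean difference by treatment. Without saline day 9 mouse 3 the saline comparison no longer passed, and with the beta-actin ratio as a covariate the treatment mean was 0.35 with an adjusted p of 0.442.

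The 5 CYP2J genes, epoxygenases of arachidonic acid, included none that passed. All 5 differences were below 0 at day 9 and all 5 above 0 at day 23, but several were far smaller than their SE. At day 23 Cyp2j9 differed by 0.0046 (SE 0.16), Cyp2j11 by 0.0067 (SE 0.13) and Cyp2j13 by 0.034 (SE 0.091). Cyp2j11 and Cyp2j13 also lay below the median level of all genes. A turn of the subfamily between the days is therefore not shown. Cyp2j5, the bright liver member, differed by -0.10, -0.15 and 0.20. Its second probe set, at a level of 10.47 against 12.64, differed by -0.50, -0.10 and 0.47, with unadjusted p of 0.0233 at day 3 and 0.0313 at day 23 and adjusted p of 0.222 and 0.331.

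Cyp2r1, Cyp2u1 and Cyp2s1 are the single members of their subfamilies and act on vitamins, fatty acids or retinoids. Cyp2u1, a fatty acid hydroxylase, read 6.65, 6.54 and 6.88 in saline and 6.30, 6.32 and 6.22 in treated mice at day 3, and 6.70, 6.63 and 6.67 against 6.42, 6.13 and 6.24 at day 9. The treated mice lay below the saline mice on both days and overlapped them at day 23. Cyp2u1 was 1.28-fold lower for the mean of the days (-0.36, SE 0.09, adjusted p = 0.0119), a call kept without each mouse and lost with the beta-actin ratio as a covariate (-0.18, adjusted p = 0.53). Cyp2r1, a vitamin D 25-hydroxylase, differed by -0.46, -1.07 and -0.39 (SE 0.36), with 1 treated day 9 mouse at 5.16 and the other two at 6.72 and 6.96, and its mean of -0.64 had an adjusted p of 0.0561. Cyp2s1, which is dim here, differed by 0.39, 0.03 and -0.18.

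Among the 5 CYP3A genes, Cyp3a16, a female-predominant and perinatal form, had the largest difference of the 43. It read 6.79, 7.43 and 7.45 in saline and 9.04, 9.77 and 6.97 in treated mice at day 3. At day 9 it read 9.10, 5.14 and 7.56 against 8.75, 9.41 and 8.61, and at day 23 it read 8.74, 7.14 and 8.44 against 9.76, 9.98 and 9.81. The groups overlapped at days 3 and 9 and separated at day 23. The differences were 1.37, 1.66 and 1.75 (SE 0.75), none called, and Cyp3a16 was 3.01-fold higher for the mean of the days (1.59, SE 0.44, adjusted p = 0.0241). The call was lost without treated day 3 mouse 1 (adjusted p = 0.0504) or 2 (0.0522) or saline day 23 mouse 2 (0.0503), with an intensity trend in the variance (0.0645), and with the beta-actin ratio as a covariate (1.06, adjusted p = 0.48).

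The RNA of the 2 brightest CYP3A genes, Cyp3a11 and Cyp3a25, differed little. Their mean levels were 14.09 and 13.25, and differences of very bright probe sets can be compressed. Cyp3a11, the standard target of PXR, read 14.17, 14.06 and 14.12 in saline and 14.14, 14.04 and 14.18 in treated mice at day 3, and differed by 0.00, 0.06 and 0.08, with a 95% interval for the mean of -0.05 to 0.14. Cyp3a25 differed by 0.07, 0.04 and 0.09. Cyp3a13 read 11.47, 11.01 and 11.79 against 11.89, 11.95 and 11.92 at day 3 and differed by 0.49, -0.06 and 0.48 (SE 0.26), without a call. Cyp3a44 differed by 0.17, -0.38 and -0.24 (SE 0.40). The probe set shared by Cyp3a41a and Cyp3a41b, female-predominant forms, differed by 0.08, 0.04 and 0.23. Across subfamilies, 0 of the 10 measured genes inducible through CAR or PXR passed at days 3, 9 and 23 or for the mean, where 4.51%, 2.81%, 0.385% and 11.6% of all genes did, so that 0 of 10 is near the background. Of 6 female-predominant genes 1 was higher (Cyp3a16) and 1 lower (Cyp2c38) for the mean, beside 5.6% of all genes higher and 6.01% lower. None of the 6 passed on a single day. In so few genes 1 call each way does not show a shift of the class.

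The regulators of these genes were measured on the same arrays. Of 22 measured, Ahr alone was higher at day 3, 5 were higher at day 9, 0 at day 23 and 8 for the mean of the days, and 0 were lower, beside 2.63%, 1.91%, 0.187% and 5.6% of all genes higher. At day 9 CAR (Nr1i3) was 1.44-fold higher (0.52, SE 0.11, adjusted p = 0.0171), from 9.82 ± 0.18 in saline to 10.34 ± 0.07 in treated mice (SD, n = 3). Nr0b2, the small heterodimer partner that represses bile acid synthesis, differed by 1.12 (adjusted p = 0.0295), Rxra by 0.52 (adjusted p = 0.0331) and the glucocorticoid receptor Nr3c1 by 0.41 (adjusted p = 0.0323). PXR (Nr1i2) passed for the mean of the days (0.30, SE 0.08, adjusted p = 0.0238). Several of these day 9 calls were lost without a single mouse; for Nr0b2 the adjusted p then ran from 0.0237 to 0.124, and without saline mouse 1 its difference was 0.73. With averaged probe sets per gene Rxra differed by 0.19 at day 9 (adjusted p = 0.191) and Nr3c1 by 0.0058 (adjusted p = 0.984). For Nr3c1 the mean of the days was 0.21 with the brightest probe set and -0.0081 with the mean of its probe sets, and for Rxra it was 0.38 and 0.17, called in both. With the beta-actin ratio as a covariate none of the 5 day 9 calls remained (adjusted p from 0.0898 for Ahr to 0.58 for Nr3c1), and of the 8 for the mean Ahr and Nr1i2 remained.

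The proteins that serve P450 enzymes had few calls on single days. Of 14 measured partners and haem synthesis genes, 0 passed at days 3 and 23, where 4.51% and 0.385% of all genes did. At day 9 and for the mean of the days the shares of all genes were 2.81% and 11.6%. At day 9 Alad, an enzyme of haem synthesis, was 1.39-fold higher (0.48, SE 0.10, adjusted p = 0.0167). For the mean of the days Alad (0.33) and cytochrome b5 (Cyb5a, 0.14) were higher, and Cyb5r3, the reductase of cytochrome b5 (-0.25), and Uros, also of haem synthesis (-0.21), were lower. The lower calls rested on the probe set: with averaged probe sets per gene Uros differed by -0.051 (adjusted p = 0.62) and Cyb5r3 by -0.17 (adjusted p = 0.0725), while Alad was 0.89 at day 9 (adjusted p = 0.0872) and 0.63 for the mean, where it still passed. All 4 calls of the mean and that of Alad at day 9 were lost with the beta-actin covariate (adjusted p from 0.0611 to 0.264). Alas1, the first enzyme of haem synthesis, differed by -0.53, -0.09 and -0.11 and was not called.

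Genes of the pericentral hepatocytes, the zone where many P450 genes are made, were higher for 4, 1 and 0 of 14 on the days and for 7 in the mean, with 0 lower, beside 2.63%, 1.91%, 0.187% and 5.6% of all genes higher. Their median differences were 0.37, 0.34 and 0.15 at days 3, 9 and 23. Their mean level was 9.12 to 9.33 in saline and 9.51 to 9.70 in treated mice at day 3. It was 9.31 to 9.47 against 9.59 to 9.81 at day 9 and 9.10 to 9.31 against 9.34 to 9.52 at day 23, without overlap on any day. The genes called at day 3 were Tbx3 (0.99), Slc13a3 (0.75), Ahr (0.57) and Rnase4 (0.45). Ahr stands on this list too. The Tbx3 call at day 3 was lost in 8 of 13 other settings, among them the mean of its probe sets (0.48, adjusted p = 0.0819) and the beta-actin covariate (0.58, adjusted p = 0.513). Slc13a3 was 0.40 with averaged probe sets and still passed. With the covariate it was 0.39 (adjusted p = 0.377) and Rnase4 0.37 (adjusted p = 0.267) at day 3. Of the 7 calls of the mean Ahr alone remained with the covariate, the others having adjusted p from 0.158 (Rnase4) to 0.523 (Slc1a2). Aldh1a1 passed for the mean in 6 of 26 other settings and Slc1a2 in 13. Of 12 periportal genes, Pck1, of gluconeogenesis, was higher at days 3 and 9 (0.76 and 0.74). The mean level of the periportal list overlapped between treated and saline mice on each day. Hepatocyte markers passed for 0, 1 (Apob) and 0 of 8. Their mean level overlapped between groups at day 3, 13.68 to 13.71 in saline and 13.64 to 13.73 in treated mice. It was higher in treated mice at day 9, 13.67 to 13.75 against 13.48 to 13.53, and at day 23, 13.80 to 13.88 against 13.71 to 13.74, without overlap. That mean includes Apob, at 12.18 in saline and 13.17 in treated mice at day 9, and 12.82 and 13.47 at day 23. The shift is thus not shown for the hepatocyte markers in general.

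Markers of other cells and of inflammation moved with treatment at day 3. Of 13 Kupffer cell and macrophage markers 7 were higher, Marco by 1.98 and Clec4f by 1.04, with mean list levels from 7.91 to 8.92 in saline and 8.97 to 9.60 in treated mice, and 0 passed at days 9 and 23. Of 20 acute phase genes 5 were higher at day 3, Saa2 by 4.83, and 1 was lower at day 9 (Orm1, -0.46). Lymphocyte markers passed for 3 of 12, endothelial for 1 of 9, cholangiocyte for 1 of 6 and stellate for 0 of 10 at day 3. Beside these counts, 4.51% of all genes passed at day 3 (2.63% higher), 2.81% at day 9 (0.896% lower) and 0.385% at day 23. In lists this short a single call is little above that share. The lymphocyte, endothelial, cholangiocyte and stellate counts are of day 3 only. At day 9 the mean stellate level was 7.72 to 7.90 in saline and 8.01 to 8.10 in treated mice, without overlap. Its Reln averaged 9.66 and 10.29 and its Dcn 9.77 and 10.33. The stellate means overlapped at days 3 and 23. The cholangiocyte means were also apart at day 9, 4.31 to 4.40 against 4.43 to 4.69. The part of these markers and of the hepatocyte markers in the P450 differences was not tested.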

How the data were processed

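Liver RNA of 18 female mice was measured on 21 Affymetrix arrays of 45101 probe sets. The deposited values are log2 expression per probe set, made with RMA per the submitters' processing notes; no RMA version was found, nor which arrays shared a normalization. Gene symbols came from GEO's platform annotation, and all 43 were found in RefSeq (GRCm38.p6), which gave the promoters.

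One array per mouse (18 in all, day 23 from p0621) entered a limma model of the 6 group means (lmFit, eBayes; 12 residual and 4.85 prior degrees of freedom). Benjamini-Hochberg adjustment ran over 18193 genes, two-sided, with a threshold of 0.05. The replicates were taken as separate mice, because the mice were killed on their day. The labels give mouse numbers 1, 2 and 3 to saline mice of both day 3 and day 9. Number 8 likewise stands for a treated mouse of each of those days. Elsewhere in the text a mouse is named by its replicate number. RMA compresses differences of dim and of very bright probe sets, and the number of arrays limits the precision. The members and gene lists were chosen with earlier results of these data known. Every member could be named; full statistics were given for those past the threshold and for a fixed set of well-known P450 genes. From each other list the called or brightest genes were named.

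In the 3 mice hybridised in both array sets, 0 of 43 genes passed a test of array set (limma with the mouse as a block; 5 at an unadjusted p below 0.05, 11.6%), as did 0 of all genes (10.2% unadjusted). Treated and saline mice of the same day and replicate number correlated from -0.14 to 0.08 in their deviations from group means, so the replicate numbers do not pair the mice. Other settings were the comparison's own arrays, quantile normalization, genes above the median level, averaged probe sets per gene, eBayes with a robust prior and a trend on intensity, a block for the replicate number, the p0617 arrays, leaving out each array, and, chosen after seeing the data, the beta-actin 3' to 5' ratio as a covariate. The software was Python 3.11.15 with matplotlib 3.10.9, and R 4.3.3 with limma 3.58.1.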

Additional observations from a re-analysis of the deposited data

How the results depend on the processing

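The number of P450 genes called varied by a few genes. At day 3 it was 1 and became 2 with genes above the median level, with averaged probe sets per gene and with an intensity trend, each adding Cyp2a12, and 0 with the beta-actin ratio as a covariate; leaving out each mouse gave 0 to 2. At day 9 it was 2 and became 0 on the comparison's own arrays and with the covariate, and 1 with the replicate block (Cyp1a2). It became 3 with the trend, adding Cyp2d26, and without each mouse it was 0 to 1. At day 23 it was 0 and became 1 (Cyp1a2) with quantile normalization, with genes above the median level and with the trend, and 2 with the p0617 arrays (Cyp1a2, higher, and Cyp2c50, lower); without each mouse it was 0 to 1. That setting compares treated p0617 arrays with saline p0621 arrays, and in the same mice Cyp2c50 was 0.36 higher in p0621 (limma, unadjusted p = 0.00729, adjusted p = 0.446), against a day 23 difference of -0.10. For the mean of the days 7 became 11 with genes above the median level or with the p0617 arrays and 2 with the covariate (Cyp1a2 and Cyp2d9). It became 8 with quantile normalization and 9 with the trend, and without each mouse it was 5 to 8. In saline mice, day 9 minus day 3, 1 became 2 with the trend (adding Cyp2e1) and 0 with the covariate, and was 0 to 1 without each mouse. Changes in effect between days stayed at 0 in every setting. The replicate block gave 1, 1, 0 and 8 calls at days 3, 9, 23 and for the mean, and as the numbers do not pair the mice it says nothing of a weaker effect.

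Over the named genes, 1518 values in other settings kept their direction and side of the threshold, 154 lost a call, 12 gained one and 28 changed sign. With the p0617 arrays, Cyp1a1 was 0.12 at day 23 and 0.038 for the mean, Cyp1b1 0.16, Cyp2c29 -0.093 and Cyp3a11 -0.012 at day 23. With averaged probe sets Cyp1b1 was 0.053 at day 23 and Nr3c1 -0.0081 for the mean, where it was called at 0.21. With the covariate Cyp2b10 was 0.17 for the mean. Leaving out a mouse gave ranges across 0 for Cyp1a1 (-0.025 to 0.13 at day 3, -0.11 to 0.035 at day 9, -0.096 to 0.019 at day 23, -0.036 to 0.015 for the mean), for Cyp1b1 (-0.097 to 0.17), Cyp2b13 (-0.083 to 0.24) and Cyp2b9 (-0.013 to 0.18) at day 23, for Cyp2f2 (-0.029 to 0.18) and Cyp3a13 (-0.26 to 0.24) at day 9, and for Cyp3a11 (-0.027 to 0.046) at day 3. A filter at the median level tests fewer genes, and leaving out mice leaves fewer samples; the cause of the other changes was not tested. Signal over background was not among the deposited values, so which dim genes are above background is unknown.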
